A study of Mus musculus with 4 samples.

Results

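The shift of the ribosome-bound to whole-ganglion RNA ratio after nerve injury was measured for 411 of the 116912 mouse transcripts listed in the deposited tables. For each transcript the log2 change after injury in whole-ganglion (bulk) RNA was subtracted from the log2 change in RNA that came down with tagged neuronal ribosomes (RiboTag RNA). A positive shift means that a transcript gained in RiboTag relative to bulk RNA after injury, and a negative shift that it lost. A transcript was included with 50 or more reads summed over the bulk libraries, 50 or more over the RiboTag libraries, and numbered columns that agreed within each of the 4 libraries (chi-square p above 0.001).

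The dorsal root ganglia hold the cell bodies of sensory neurons together with satellite glia, Schwann cells, immune cells, fibroblasts and blood vessels. Crush of the sciatic nerve interrupts the axons of part of these neurons, and their cell bodies then switch on a growth programme through transcription and through a changed use of existing mRNA. In RiboTag mice a ribosomal protein of the large subunit, Rpl22, carries an HA epitope only in cells that express Cre, so that an HA antibody pulls down ribosomes of those cells with the mRNA on them. The ratio of that RNA to total RNA rises when more copies of an mRNA sit on neuronal ribosomes, and also when a larger part of its copies lies in the tagged cells.

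Bulk RNA was extracted from whole lysates of ganglia of adult wild-type CD-1 mice, either uninjured or 72 hours after sciatic nerve injury, and sequenced with a nanopore direct RNA kit. RiboTag RNA was extracted from HA immunoprecipitates of ganglia of adult RPL22HA+/+;Advillin-Cre+ mice (B6N.129-Rpl22tm1.1Psam/J crossed with B6.129P2-Aviltm2(cre)Fawa/J) in the same states and sequenced with a nanopore cDNA-PCR kit. Advillin-Cre is active in sensory neurons. Both RiboTag groups carried the tagged protein and the Cre, and neither bulk group did. The kit, strain, genotype and immunoprecipitation changed together between the assays, while the injury contrast was made inside each assay. The sources used here do not say how many animals or ganglia went into a library. Each of the 4 groups had 1 sample, so no test between conditions was possible and every interval below covers counting error only. The deposited values count reads, and reads of the amplified RiboTag libraries need not be separate molecules. Each library came as 3 numbered columns, which the labels do not call samples, and their mean was used. The intervals treat that mean as 1 count. In bulk RNA, fewer cells of a type and less RNA per cell cannot be told apart.

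After leaving out a dominant pair of RiboTag transcripts from the library totals, the bulk libraries held 592823 reads without injury and 529231 with it, and the RiboTag libraries 142870 and 46859. The pair had taken 31.2% of uninjured and 40.9% of injured RiboTag reads and 0.0189% and 0.0191% of bulk reads. The 411 transcripts held 23.5% and 23.6% of the remaining bulk reads without and with injury, and 35.8% and 32.5% of the remaining RiboTag reads. The median transcript had 124.0 and 113.7 reads in the bulk libraries, 62.9 in uninjured and 21.0 in injured RiboTag RNA. The injured RiboTag library thus set the precision: 186 of the 411 had under 20 reads there. A count of 0 allows up to 3 reads, or 64.0 CPM in that library (CPM: reads scaled to a library total of 1000000 without the pair).

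No table used here pairs these transcript identifiers with genes. The gene lists and cell type markers drawn up for the ganglion could therefore not be applied, the tissue label was not checked against markers, and no sequence is shown. Transcripts are given by identifier, at most 2 in each direction of a comparison, or by rank.

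With library totals taken without the dominant pair, 29 of the 411 transcripts shifted by 2-fold or more with a counting interval that excluded 0. The balance of gains and losses depended on that choice: the split was 12 higher and 17 lower here, 6 and 41 with totals over all transcripts and 1 and 66 with TMM factors (scaling by the trimmed mean of ratios between libraries). It also depended on the read minimum, with 35 higher and 25 lower at 20 reads per assay and 2 and 9 at 100. The RiboTag minimum sums raw reads, so the deeper uninjured library weighs more in it. Among the 411 the median shift was -0.03 on the log2 scale, the middle 50% of transcripts lay between -0.44 and 0.36, and 203 shifts were positive and 208 negative. A transcript was counted as higher or lower at a shift of 2-fold or more (1 on the log2 scale) with a 95% counting interval that excluded 0. The 12 higher and 17 lower together made 7.06% of the 411. Over a wider set of 4903 transcripts, taken from 20 reads upward with at least 5 in bulk and 5 in RiboTag RNA and whatever their columns, 6.36% were counted, 3.96% as higher and 2.41% as lower. The share of the 411 was near that of the wider set, but the split leaned the other way, with 2.92% higher and 4.14% lower. The sets are also unlike in depth: the median counting interval reached 0.84 to either side in the 411 and 1.97 in the wider set. Among the 505 transcripts with 50 or more reads per assay and any columns, 13.7% were counted.

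The median interval reached 0.84 to either side of the shift, and in 350 of the 411 it reached less than 1. With totals taken without the dominant pair, the whole interval lay inside the 2-fold limits for 102 transcripts, so a shift of 2-fold was outside counting error. For 280 others, which were not counted, the interval crossed a 2-fold limit. With each column mean taken as 1 count, it was not settled whether their ratio moved by that much. Among the uncounted, 52 shifts excluded 0 but were smaller than 2-fold, and 3 were 2-fold or more with an interval that reached 0. In all, 81 intervals excluded 0, 31 above and 50 below, which is 19.7% where a 95% interval misses in 5% if counting is the only error. Leaving out the 1 transcript with 0 reads in a library, the standard deviation of the shifts was 0.57 against 0.42 from counting. The intervals and the 0.42 treat each column mean as 1 count. If the 3 columns hold separate reads, the counting error of their mean is smaller. With the columns summed instead, 32 shifts were counted, 11 higher and 21 lower.

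**Figure D1:**
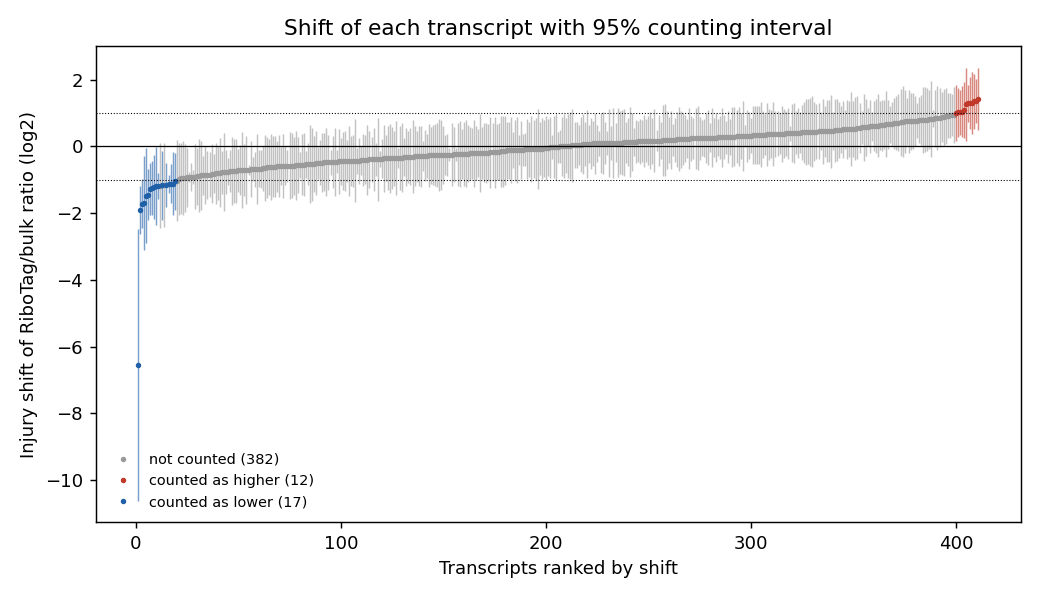
The 411 transcripts ranked by shift (horizontal axis), with the log2 shift as a point and its 95% counting interval as a line, coloured by the counting rule. Dotted lines mark 2-fold. The 382 uncounted transcripts form a continuous slope through 0, and 1 transcript with a shift of -6.55 stands apart at the left end.

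The choice of library total moved the whole distribution. With totals over all transcripts the median shift was -0.25, and with TMM factors it was -0.42. These settings add 1 constant to every shift and leave the order of the transcripts as it was. Differences between transcripts below therefore do not depend on them. The sign of a small shift does, as do the counts above of intervals inside the 2-fold limits or excluding 0. Relative to the median transcript, with the median change set to 0 in each assay, the split stayed at 12 higher and 17 lower.

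Among the 411, whose columns agreed by rule, the RiboTag change varied more than the bulk change. Without the transcript at 0 reads, the standard deviation was 0.28 for the bulk change (0.21 from counting) and 0.60 for the RiboTag change (0.36 from counting). Bulk changes of the 411 had a median of 0.03 and a middle 50% from -0.09 to 0.15. RiboTag changes had a median of 0.01 and a middle 50% from -0.44 to 0.39. The rule on columns bears on this: over the 505 transcripts with enough reads and any columns the standard deviation was 0.85 for bulk and 0.69 for RiboTag RNA, while the middle 50% still spanned 0.30 and 0.84. In bulk RNA the rule counted 4 transcripts as higher and 1 as lower, 1.22% of the 411, against 9.76% of all 7737 transcripts with 20 or more bulk reads (5.21% higher, 4.55% lower). That background includes transcripts whose columns disagreed. In RiboTag RNA 17 were higher and 16 lower, 8.03%, against 9.33% of all 1864 transcripts with 20 or more RiboTag reads (4.77% higher, 4.56% lower). That split turned to 8 higher and 35 lower with totals over all transcripts, and to 6 and 62 with TMM factors.

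Among the 12 transcripts with a higher ratio, the RiboTag change was the larger term in 11, and 8 were counted as higher in RiboTag RNA by themselves. Their RiboTag changes ran from 0.12 to 2.44 (median 1.09) and their bulk changes from -0.90 to 1.09 (median -0.01). Among the 17 with a lower ratio, the RiboTag change was the larger term in 16, and 11 were counted as lower in RiboTag RNA. Their median RiboTag change was -1.32 and their median bulk change 0.07. In 9 of the 12 and 16 of the 17 the bulk level moved by less than 1.5-fold. Over all 411 the bulk change ran from -0.39 at the 5% point to 0.44 at the 95% point, also inside 1.5-fold. A small bulk change was therefore not particular to the counted transcripts. A larger RiboTag term is favoured by its counting error (0.36 against 0.21 in bulk) and by the rule on columns. The 94 transcripts that this rule removed had a standard deviation of 1.73 in the bulk change and 0.98 in the RiboTag change. No transcript was counted as changed in opposite directions in the 2 assays. The 1 higher transcript with a larger bulk term was among the 5 with the most bulk reads. Its bulk count went from 5400 to 2587 reads (log2 change -0.90) while its RiboTag counts were 68.3 and 24.0 (0.12), a shift of 1.02 (0.35 to 1.68).

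**Figure D2:**
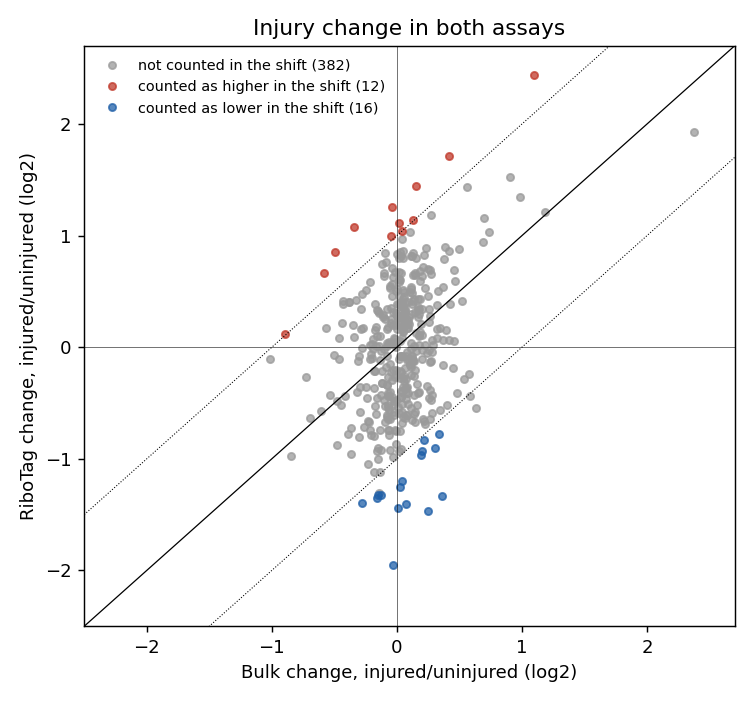
Log2 injury change in bulk RNA (horizontal) against that in RiboTag RNA (vertical) for the 410 transcripts with reads in all libraries. The solid line marks equal change and the dotted lines a 2-fold shift. The points spread along the vertical axis more than along the horizontal one, and the counted transcripts lie above and below the middle of the cloud, most of them near a bulk change of 0.

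ENSMUST00000035220.12 had the highest shift. Its bulk columns held 68.0, 61.7 and 67.0 reads without injury and 51.0, 39.0 and 47.8 after it. Its RiboTag columns held 35.0, 31.0 and 33.0 reads without injury and 28.0, 19.0 and 21.0 after it, from a shallower library. The bulk level went from 110.6 to 86.8 CPM and the RiboTag level from 231.0 to 483.7. The log2 bulk change was -0.34 with a counting interval from -0.93 to 0.21, which included 0, and the RiboTag change 1.08 (0.25 to 1.90). The log2 shift was 1.42 (95% counting interval 0.48 to 2.36), a 2.68-fold gain in the ratio, and single columns gave 1.54, 1.41 and 1.29.

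ENSMUST00000021203.7 followed with a shift of 1.35 (0.69 to 2.01). Its bulk level went from 150.7 to 106.4 CPM and its RiboTag level from 722.8 to 1299. It held 47.4% of the bulk and 38.5% of the RiboTag reads of the entries within 10 places of it in the list. Summed over those entries the shift was 0.42 (-0.03 to 0.87), so for this transcript the gain was not seen in its neighbourhood as a whole. For ENSMUST00000035220.12 the same sum gave 1.24 (0.45 to 2.04), but it held 32.4% of the bulk and 91.7% of the RiboTag reads there, so that sum largely repeats its own RiboTag change. With TMM factors the shifts of these transcripts were 0.95 and 1.03.

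ENSMUST00000166610.8 had the lowest shift, which rests on a bulk level of 0. It had 0 reads in each uninjured bulk column and 62.9, 58.0 and 61.0 in the injured ones. In RiboTag RNA it had 51.1, 64.8 and 71.3 reads without injury and 31.2, 27.1 and 30.5 after it, 436.6 and 632.3 CPM. With the 0 set to 3 reads and the other counts taken as measured, its bulk level was at least 22.6-fold higher after injury and its ratio at least 15.6-fold lower. Counting error in the other libraries lowers these limits: the exact interval of the log2 bulk change starts at 4.17, and the normal interval of the shift, -6.55 with the pseudocount, runs from -10.61 to -2.49. It is the 1 counted transcript whose shift came from the bulk side among the 17 lower ones. Its bulk reads met the inclusion minimum through the injured library alone. With 0 uninjured bulk reads, inclusion required a high injured bulk level. A large bulk gain, and with it the size of these limits, therefore follows in part from the inclusion rule. This transcript held 93.8% of the bulk and 97.2% of the RiboTag reads within 10 places of it, so a sum over that stretch adds little to its own value.

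ENSMUST00000103147.5 showed the lowest shift among transcripts with reads in all libraries. Its bulk columns held 222.0, 183.0 and 201.0 reads without injury and 170.0, 190.0 and 168.0 after it, 340.7 and 332.6 CPM. Its RiboTag columns held 222.0, 250.0 and 240.0 reads without injury and 17, 22 and 20 after it, 1661 and 419.7 CPM. The injured RiboTag reads came from a shallower library, and the columns are not separate samples. After scaling, the log2 bulk change was -0.03 (-0.33 to 0.26) and the RiboTag change -1.95 (-2.70 to -1.30). The log2 shift was -1.92 (-2.63 to -1.20), a 3.78-fold loss in the ratio. It held 74.7% of the bulk and 95.7% of the RiboTag reads within 10 places of it.

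**Figure D3:**
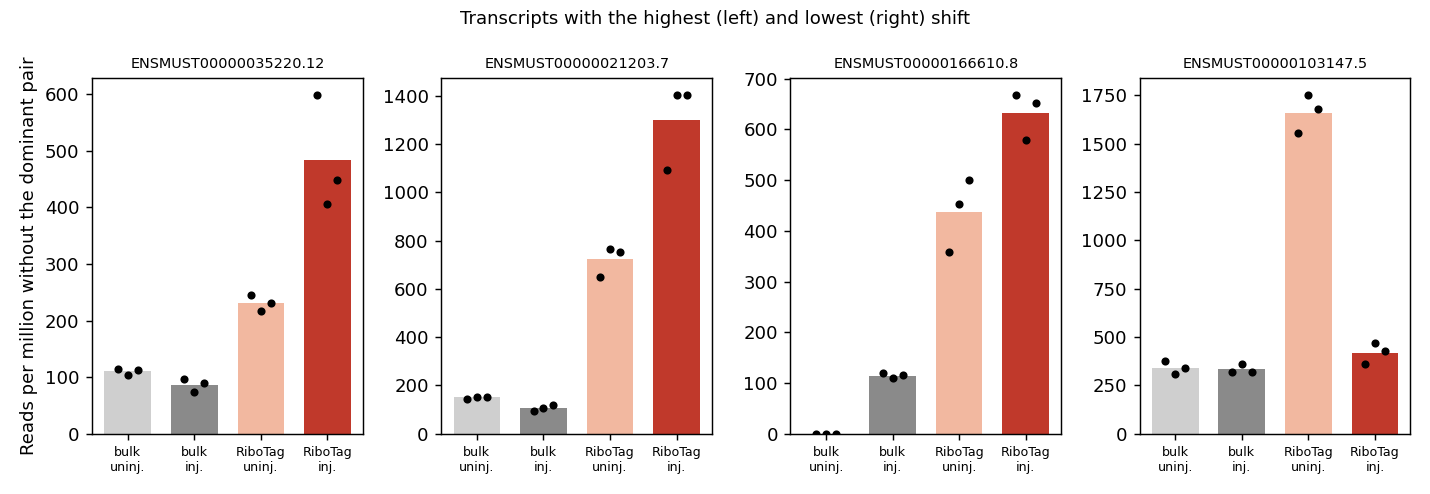
Levels in CPM, without the dominant pair in the total, of the transcripts with the 2 highest and the 2 lowest shifts. Bars are the mean of the 3 columns of a library, points the columns, which are not separate samples. In the first panels RiboTag bars grow with injury while bulk bars shrink, in the third the uninjured bulk bar is at 0, and in the fourth the RiboTag bar drops from 1661 to 419.7 beside bulk bars of 340.7 and 332.6.

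A gain in both assays went with a small or a large shift. ENSMUST00000190827.7 went from 79.8 to 418.2 CPM in bulk RNA (log2 change 2.38, 1.94 to 2.88) and from 163.3 to 626.0 in RiboTag RNA (1.93, 1.10 to 2.80). It had the highest bulk change among transcripts with reads in all libraries, and its shift was -0.44 (-1.34 to 0.45). By contrast, ENSMUST00000041500.8 went from 267.6 to 572.5 in bulk RNA (1.09) and from 137.7 to 754.0 in RiboTag RNA (2.44). It had the highest RiboTag change of the 411 and a shift of 1.34 (0.51 to 2.18). Its ratio was below parity without injury (-0.93, -1.69 to -0.26). After injury it was 0.42 with an interval that included parity (-0.16 to 0.89). Its uninjured RiboTag columns held 29, 12 and 18 reads, and single columns gave shifts of 0.86, 2.19 and 1.15. These transcripts were picked for a high bulk change and a high RiboTag change, which enter the shift with opposite signs. That choice draws their shifts apart, and the difference between them was not tested.

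Of the 4 transcripts counted as higher in bulk RNA, 3 were also counted as higher in RiboTag RNA, and their shifts lay on both sides of 0 (-0.44, 0.03 and 1.34). The fourth was ENSMUST00000166610.8, which met the bulk read minimum through the injured library alone, so its bulk gain follows in part from the inclusion rule. The 1 transcript counted as lower in bulk RNA, ENSMUST00000040647.11, went from 305.3 to 150.3 CPM (log2 change -1.02, -1.41 to -0.63). Its RiboTag level was 755.7 and 697.1 (-0.10, -0.71 to 0.47), which gave a shift of 0.92 (0.24 to 1.59), short of 2-fold. ENSMUST00000022529.8 had the second-lowest RiboTag change. Its bulk level was 275.4 and 326.8 and its RiboTag level 1148 and 405.5, a shift of -1.71 (-2.46 to -0.97).

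The ratio itself ranged far more widely than its shift. Without injury the log2 RiboTag to bulk ratio had a median of 1.14 (2.21-fold) and a middle 50% from 0.20 to 2.20. After injury the median was 1.11 (2.15-fold) and the middle 50% from 0.17 to 2.17. Under the 2-fold counting rule, 222 transcripts were higher in RiboTag RNA without injury and 214 after it, and 33 and 43 were lower. Of all transcripts with 20 or more reads in a state, the uninjured libraries had 20.6% higher and 31.7% lower, and the injured ones 13.4% and 17.7%. Both states counted 189 as higher and 32 as lower, and none changed from one side to the other. Of those higher without injury, 33 were uncounted after it, while 25 were counted only after injury. The member with the most bulk reads sat at the bottom of the range in both states, at -5.27 and -4.89, and had a shift of 0.38 (-0.30 to 1.06). These levels carry the differences in kit, strain and genotype between the assays, and the requirement of 50 RiboTag reads favours transcripts with a high ratio. Parity also depends on leaving out the dominant pair, which took 31.2% of uninjured and 40.9% of injured RiboTag reads. Counts of transcripts above or below it hold for these totals only.

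**Figure D4:**
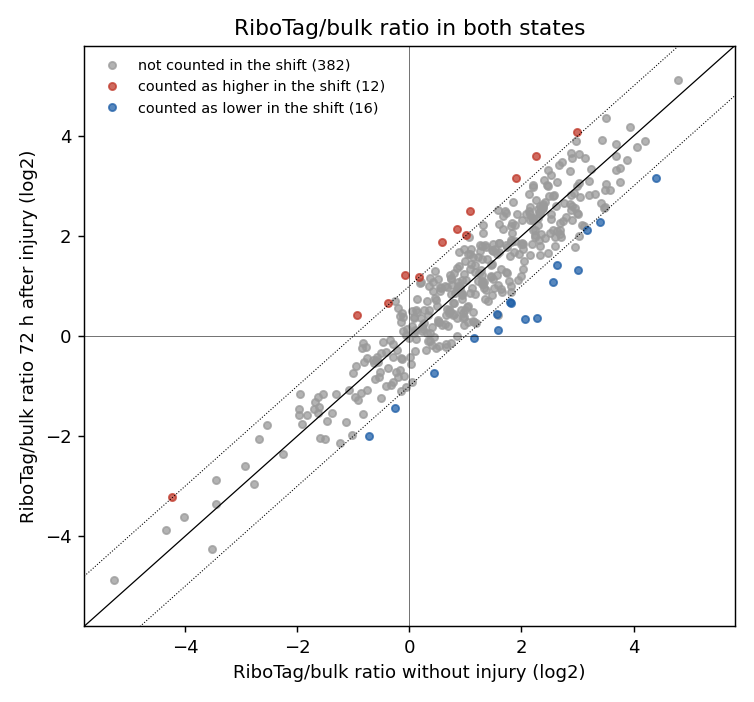
Log2 RiboTag to bulk ratio without injury (horizontal) and 72 hours after it (vertical) for the 410 transcripts with reads in all libraries. The solid line marks an unchanged ratio and the dotted lines a 2-fold shift. The ratios run along the diagonal from -5.27 to 5.11, and the counted transcripts border the cloud over much of that span.

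At their measured values and with these totals, most counted transcripts changed the size of the ratio and not its side. Of all 411, 324 lay above parity without injury and 319 after it, so a place above parity was not particular to the counted ones. Of the 12 higher ones, 8 stayed above parity, 1 stayed below and 3 crossed upward. Their median ratio was 0.72 without injury and 1.95 after it. Of the 17 lower ones, 13 stayed above parity, 2 stayed below and 2 crossed downward. Their median was 2.06 without injury and 0.66 after it. The direction in which both medians moved is set by the counting rule, which picked these transcripts on their shift. That choice also favours a low start in the higher set and a high start in the lower one. Split by the ratio averaged over both states, 19 of 222 transcripts at 2-fold or more above parity were counted, 8 of 153 within 2-fold and 2 of 36 at 2-fold or more below it. The median shifts of these classes were 0.01, -0.09 and 0.16. The 7.06% counted over all 411 compares with 8.56%, 5.23% and 5.56% in the classes.

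Most of the transcripts most abundant in RiboTag RNA had a lower ratio after injury. Of the 21 with a RiboTag level of 2000 or more CPM (geometric mean of both states), 16 had a negative shift, 15 with an interval below 0 and 2 with an interval above 0. Their median shift was -0.42, with a median RiboTag change of -0.44 and a median bulk change of 0.03. Both other scalings above lower these shifts further. Over all 411, 208 shifts were negative, and 50 intervals lay below 0 and 31 above. The median interval reached 0.32 to either side in these 21 and 0.92 in the transcripts under 500 CPM. Counts of intervals that exclude 0 therefore also reflect read depth. The 240 transcripts under 500 CPM had a median shift of -0.04, the 119 from 500 to under 1000 a median of 0.11 and the 31 from 1000 to under 2000 a median of -0.11. By bulk level the medians were -0.03, 0.03, 0.07 and -0.09 over the same limits, for 314, 44, 32 and 21 transcripts. Of the 21 at 2000 or more CPM in bulk RNA, 8 had an interval below 0 and 2 above. Neither series of medians has a steady order, and the difference between the splits was not tested. Because these classes were read after the data were seen and rest on 1 library per group, they are a description of these libraries.

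The transcript with the most RiboTag reads of the 411 had 3348, 3347 and 3317 reads in the uninjured columns and 763.0, 778.0 and 746.0 in the injured ones. Its RiboTag level went from 23358 to 16269 CPM and its bulk level from 2681 to 3535. The shift was -0.92 (-1.07 to -0.77), with an interval below 0 that reached past 2-fold. The 4 that followed had shifts of -0.70, -0.91, -0.37 and -0.25, each with an interval below 0. Of these 5, 0 were counted as lower with these totals, 2 with totals over all transcripts (shifts of -1.14 and -1.13) and 3 with TMM factors (-1.32, -1.10 and -1.30). The ranking of these 5 sums raw reads, so the deeper uninjured library weighs more, which favours negative shifts. By RiboTag level, 8 of the 10 highest had an interval below 0 and 2 had one above 0. Among all 411, where intervals were mostly wider, these numbers were 50 and 31. Together these 10 took 10.7% of the uninjured and 8.49% of the injured RiboTag reads left after the dominant pair. The share of the pair itself had gone the other way. Whether the dominant pair and these transcripts moved together for a common cause was not tested. Weighted by reads, the 411 had a shift of -0.14, from a bulk change of 0.01 and a RiboTag change of -0.14.

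**Figure D5:**
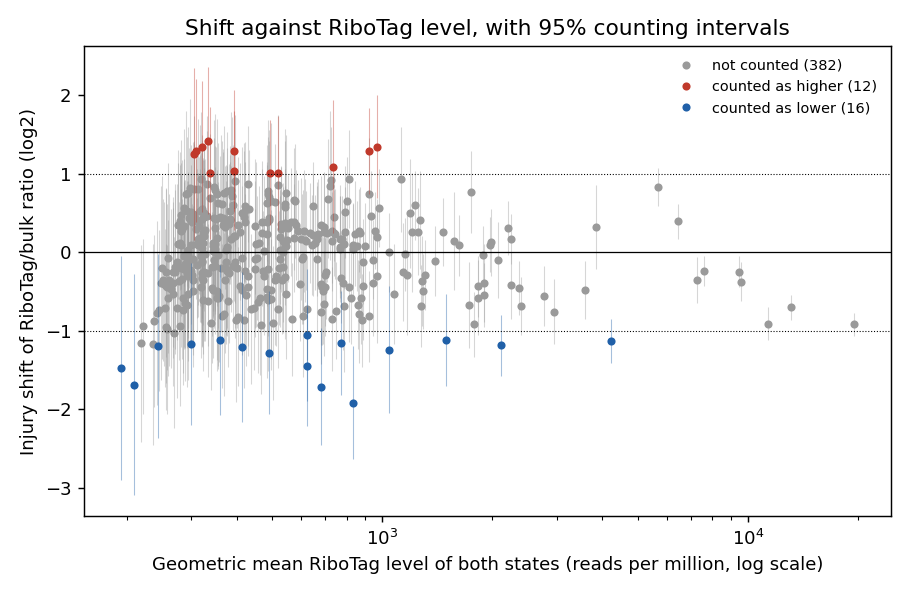
Log2 shift (vertical, with 95% counting intervals) against the RiboTag level as the geometric mean of both states in CPM (horizontal, log scale) for 410 transcripts. Intervals narrow to the right, where most of the 21 transcripts at 2000 or more lie below 0, down to -1.19.

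The condition on columns removed the largest apparent shifts. Besides the dominant pair, 94 transcripts had enough reads but disagreeing columns. Their shifts had a standard deviation of 1.95 and ran from -7.30 to 6.80, and 19 were counted as higher and 21 as lower, 42.6% of them against 7.06% of the 411. On either side of the limits the values were as follows. Transcripts whose least-agreeing library had a column p of 0.001 to 0.01 (23, inside) had a median shift of -0.03 with 2 counted, and those from 0.0001 to 0.001 (7, outside) -0.11 with 2 counted. With 50 to under 55 RiboTag reads (41, inside) the median was 0.27 with 3 counted, and with 45 to under 50 (60, outside) it was -0.05 with 4 counted.

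All 29 counted shifts had the same sign in each of the 3 columns taken alone, and 3 of the 12 higher and 8 of the 17 lower ones were 2-fold or more in each. The condition on agreeing columns favours this. Summed with the entries within 10 places in the list, which can hold other transcripts of the same gene as well as neighbouring genes, all 29 kept their sign. The sum includes the transcript itself, which held over 50% of the reads of the stretch in both assays for 7 of the 12 higher and 14 of the 17 lower ones, so the kept sign is largely given by construction. Of the 12 higher ones 8 were still counted (median shift 1.14, range 0.20 to 1.34), and of the 17 lower ones 9 (median -1.08, range -4.22 to -0.56). Only 22 of the 411 had another of the 411 within 10 places.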

How the data were processed

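The authors deposited 1 table for each of 4 libraries. Per the file headers, each holds 3 columns of estimated counts and 3 of TPM. The deposited TPM equals the estimated count times a constant (within 0.0499% from 1 read up), so no length entered it and it was not used further. The tools minimap2 and Salmon and the builds GRCm39 and mm39 are named in the submitters' processing notes. Neither their versions and settings nor the meaning of the 3 columns is stated in the sources. Columns were averaged as 1 sample. Log2 changes used the mean count plus 0.5 over library totals without the 2 most abundant RiboTag transcripts. The shift has a normal 95% interval from its 4 mean counts, each treated as 1 count. Single changes and ratios have an exact conditional binomial interval on rounded counts (Python 3.11.15, scipy 1.17.1). TMM factors came from edgeR 4.0.16. The calculation was tested on simulated data. The members and lists were chosen with earlier results of these data known. The naming rule took the 12 highest and 12 lowest counted shifts, the 5 transcripts with most reads in each assay and up to 6 per gene list. Identifiers are printed for at most 2 per direction of the shift, bulk change and RiboTag change, since none could be paired with a gene.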

Additional observations from a re-analysis of the deposited data

How the results depend on the processing

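The 29 counted shifts became 47 with totals over all transcripts (6 higher, 41 lower) and 67 with TMM factors (1 and 66). They became 60 of 1252 transcripts with a minimum of 20 reads per assay (35 higher, 25 lower), 11 of 147 with 100 (2 and 9), 137 of 13161 with no minimum (103 and 34) and 69 of 505 with any columns (31 and 38). Columns 1, 2 and 3 taken alone gave 46, 56 and 61, of which 21, 23 and 22 were among the 29. A pseudocount of 5 gave 21 (13 higher, 8 lower), which turned the split. The 5 bulk calls became 17 with 20 reads, 1 with 100, 232 with no minimum, 33 with any columns and 9 in column 2. The 33 RiboTag calls became 68 with TMM factors (6 higher, 62 lower), 77 with 20 reads, 11 with 100, 163 with no minimum, 53 with any columns, 52 in column 2 and 59 in column 3. They were 43 with totals over all transcripts (8 and 35). Looser limits admit more transcripts by construction, and the cause of the other moves was not tested. The shifts of the 2 highest and 2 lowest transcripts kept their sign and stayed inside their counting intervals under each alternative that included them. They were picked as the extremes, and the read minimum and the limit on columns do not enter a shift. This outcome was therefore largely given in advance. The sum of columns, which triples the counts, and centring on the median were added after the data were seen, as was summing over list neighbours. Summing per gene was not run because no table pairs these transcripts with genes. No paired analysis was possible because each group has 1 sample. Depth in injured RiboTag RNA limits most intervals.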
